A study of Mus musculus with 6 samples.

Results

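The comparison described here sets cultured disc cells of Chsy3 heterozygous mice against those of wild-type mice, with 2 RNA-seq libraries on each side. Its members are all autosomal genes with enough counts: 15125 genes on the 19 autosomes, out of 16061 genes that passed the filter on low counts and 46095 gene symbols in the table. The other tested genes lay on the sex chromosomes or in the mitochondria (556) or could not be placed on a chromosome (380), and they enter no count of the comparison. Each library held RNA of cells released from the nucleus pulposus of 8-week-old mice with collagenase, grown in medium with high serum and taken at passage 2. Another genotype, Chsy3 knockout, was sequenced in the same way with 2 libraries, and it serves here only to show where the heterozygous cells stood apart from it. All 6 libraries are labelled male. The labels name no strain, do not say how the Chsy3 allele was made, and do not say whether the replicates of a genotype came from different mice or cultures, so the spread behind each p-value is that between these libraries and may be technical.

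Chsy3 encodes a chondroitin sulfate synthase, a Golgi enzyme that adds alternating glucuronic acid and N-acetylgalactosamine to growing chondroitin chains. In the intervertebral disc such chains are carried mainly by aggrecan, and their charge holds the water that lets the nucleus pulposus resist compression. Cells of the nucleus pulposus descend from the notochord, are surrounded by the collagen lamellae of the annulus fibrosus, and tend to lose their matrix programme when grown on plastic, where fibroblasts, macrophages and cells of neighbouring membranes can also persist.

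Some properties of the libraries bear on everything that follows. Total counts were 33899611 and 33847284 in wild type and 29622117 and 32524895 in heterozygous, so that 3 counts, taken here as the limit of detection, stood for 0.0879 to 0.104 CPM in the 6 libraries, where CPM is a gene's count relative to the scaled size of its library. Replicates correlated at 0.987 to 0.989 and heterozygous with wild-type libraries at 0.962 to 0.964. Against the sex label, the Y-linked genes Ddx3y, Uty, Kdm5d and Eif2s3y had 0 counts in both heterozygous libraries. Ddx3y had 929 and 730 counts in wild type, and Xist, the RNA that coats the inactive X chromosome, stood at 663 and 654 CPM in wild type against 1080.0 and 1072 in heterozygous. Knockout was close to wild type, with Ddx3y at 998 and 1081 counts and Xist at 650.5 and 653 CPM. Wild-type and knockout libraries held Y-linked and Xist counts together, so their male label was not settled either. Sex, and any other property that the animals of a genotype shared, cannot be told apart from genotype in this comparison.

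The labelled tissue was checked against its markers. The notochordal genes T, Noto, Shh and Foxa2 had 0 counts in all 6 libraries, Acan, which encodes aggrecan, had 8 counts in wild-type library 1 and 0 in every other library, and the notochordal keratins Krt8 and Krt18 had at most 7 and 5 counts. Defining transcripts of the nucleus pulposus were thus at or near 0 in these libraries. Among 15 tested markers of nucleus pulposus and notochord, 7 were higher and 4 lower in heterozygous cells. Krt19, a keratin of the notochord and of epithelia, was at 14.9 and 16.6 CPM in wild type and 1.11 and 0.409 in heterozygous. Pax1, a transcription factor of the sclerotome from which the outer disc forms, went the other way, from 20.4 and 19.8 to 68.5 and 62.6 CPM.

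Chsy3 itself (chromosome 18, 59175340 to 59411336, GRCm38) was lower in heterozygous cells. It had 284 and 284 counts in wild type, 167 and 197 in heterozygous and 118 and 76 in knockout, or 8.34 and 8.35, 5.79 and 6.19 and 3.58 and 2.23 CPM. The 3 genotypes did not overlap, and heterozygous cells lay between the others. The log2 fold change against wild type was -0.48 ± 0.19 (SE, edgeR quasi-likelihood test, adjusted p = 0.0444), which passed the threshold of 0.05 narrowly. It no longer passed when any of the 4 compared libraries was left out (edgeR, adjusted p from 0.0923 to 0.181 over heterozygous libraries 1 and 2 and wild-type libraries 1 and 2) or with DESeq2 (adjusted p = 0.119). Against knockout the gene was higher by 1.05 ± 0.21 log2 (SE, edgeR, adjusted p = 7e-05). On chromosome 18, 40 of 110 tested genes within 10 Mb of Chsy3 were called (36.4%) against 137 of 341 beyond (40.2%), and 75 of 188 within 20 Mb (39.9%) against 102 of 263 beyond (38.8%).

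Across the autosomes, 2912 genes were higher in heterozygous cells (19.3% of those tested) and 3042 lower (20.1%), at an edgeR adjusted p under 0.05. Most differences were small. The median size over all tested genes was 0.23 on the log2 scale, 606 genes rose at least 2-fold (4.01%) and 453 fell at least 2-fold (3.0%), and 105 rose and 119 fell at least 8-fold. Both heterozygous libraries lay below both wild-type libraries for 34.4% of tested genes and above them for 33.0%, so libraries did not overlap for 67.5% of genes. The share of genes called in either direction was 39.4% and ran from 35.0% on chromosome 8 to 42.9% on chromosome 9. Gene groups, which were drawn up with earlier results of these data known, are read below against the background shares of 19.3% higher and 20.1% lower.

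**Figure D1:**
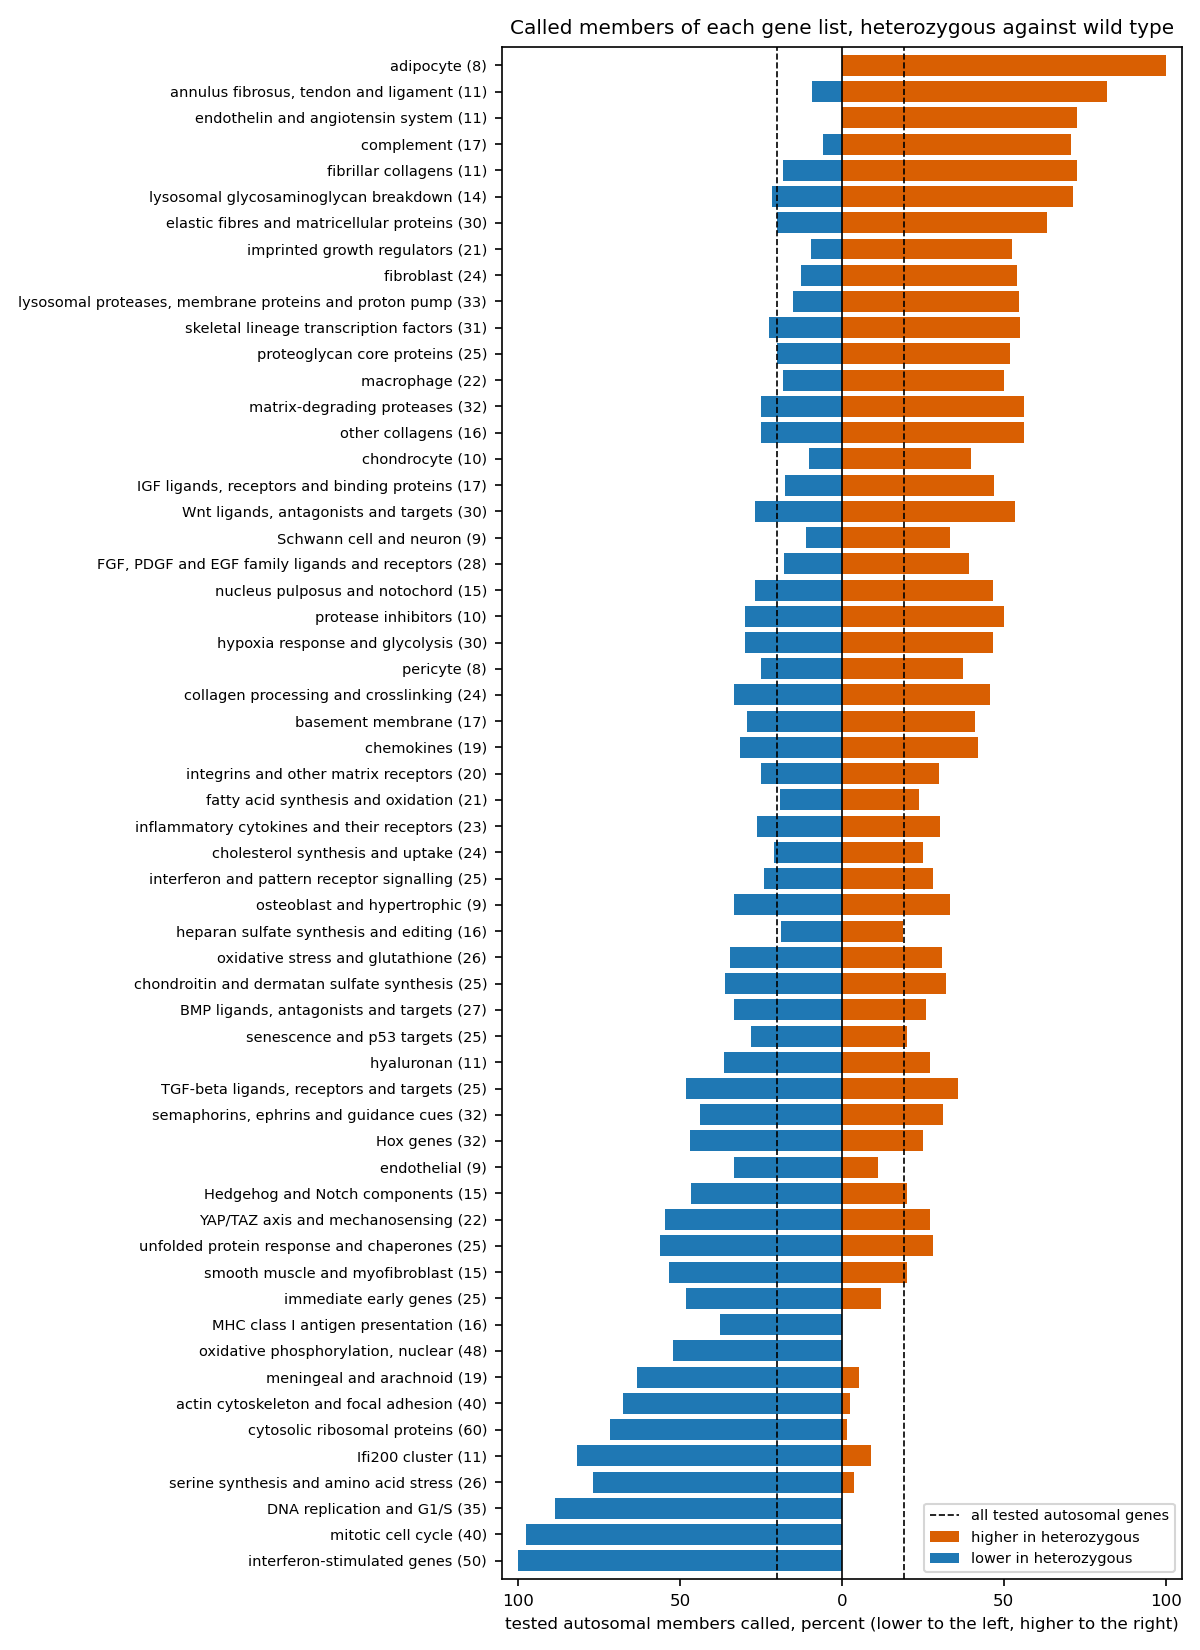
Share of the tested autosomal members of each gene list (number tested in parentheses) that were higher (bars to the right) or lower (bars to the left) in heterozygous than in wild-type cells, in percent of the members tested, for lists with at least 8 tested members; dashed lines mark the shares over all tested autosomal genes, 19.3% and 20.1%. Interferon-stimulated, mitotic and replication genes stand far to the left, and adipocyte, annulus fibrosus and complement genes far to the right.

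Genes that type I interferon switches on were lower throughout. All 50 members of the list of interferon-stimulated genes were tested and all 50 fell, against 20.1% of all autosomal genes, and both heterozygous libraries lay below both wild-type libraries for each of them (34.4% of all). Their median log2 fold change was -0.78, with a range from -2.03 to -0.14, and 16 of them fell at least 2-fold. Between 47 and 50 passed when any 1 library was left out. Interferon receptors signal through STAT and IRF factors to a sequence called the interferon-stimulated response element, and the promoters of Isg15 and Bst2, chosen among the members with small p-values because they hold it, show what it looks like. The promoter window of Oasl2, whose p-value lies between theirs, held no match. The capitals mark the stretch matching GAAA, any 2 bases and GAAA again, within 150 bases upstream of the start site, read 5′ to 3′ on the minus strand (RefSeq, GRCm38.p6), at chr4:156200819-156200968 for Isg15 and chr8:71537473-71537622 for Bst2.
Isg15: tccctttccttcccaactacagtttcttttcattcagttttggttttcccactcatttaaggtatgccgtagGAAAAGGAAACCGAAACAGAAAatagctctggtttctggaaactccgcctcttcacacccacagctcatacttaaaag
Bst2: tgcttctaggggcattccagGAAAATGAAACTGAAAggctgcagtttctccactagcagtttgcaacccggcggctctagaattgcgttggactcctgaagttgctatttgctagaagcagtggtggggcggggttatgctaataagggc
In Isg15 the marked bases run from 78 to 57 bases before the start, in Bst2 from 130 to 115.

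Searched on both strands in windows from 250 bases before to 50 after the start, this pattern was found in 19 of 47 windows of these genes (40.4%, 38 genes with a promoter in the table) against 3.44% of all 32851 promoter windows of the same length. Windows of autosomal genes that fell at least 2-fold, which include members of this list, held it in 8.68%. Over all autosomal genes called lower, which include the whole list, the share was 4.52%, and over those called higher 2.54%. Over all tested autosomal genes it was 3.2%. A match describes the sequence and shows no binding.

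Isg15, a ubiquitin-like protein attached to other proteins after interferon, was at 73.01 and 74.4 CPM in wild type, 17.7 and 18.3 in heterozygous and 60.02 and 59.4 in knockout. It fell 4.09-fold against wild type (log2 -2.03 ± 0.07, SE, edgeR adjusted p = 7.31e-27), and the heterozygous libraries were far below both other genotypes. Bst2, which encodes tetherin, the protein that holds budding viruses at the cell surface, fell from 238 and 246 to 135 and 128 CPM (log2 -0.88 ± 0.04). Zbp1, a sensor of Z-form nucleic acid, fell from 50.01 and 50.2 to 15.5 and 14.1 CPM (log2 -1.76 ± 0.08). The same held for Oasl2, a relative of the antiviral oligoadenylate synthetases, at 168 and 171 against 82.2 and 76.7 CPM, and for Ly6e, a membrane protein that affects virus entry, at 478 and 467 against 244 and 236. Lgals3bp, a secreted glycoprotein that is strongly expressed here, fell by a smaller amount, from 751 and 753 to 529 and 535 CPM. The largest edgeR adjusted p of these 6 genes was 2.82e-21. Related members such as the Oas genes share stretches of sequence, and how such reads were counted was not given in the sources used here.

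The position of heterozygous cells was not between the other genotypes. All 50 interferon-stimulated genes were also lower in heterozygous than in knockout cells in the direct contrast, in which 19.4% of autosomal genes were lower, with a median of -1.14 log2. Oasl2 stood at 233 and 223 CPM in knockout, above wild type, and Ly6e at 644 and 609. Heterozygous cells were lower than knockout cells by -1.39 ± 0.03 log2 (SE) for Ly6e and -1.52 ± 0.04 for Oasl2 (edgeR, adjusted p = 3.4e-34 and 3.05e-30). Summed over the list, the genes made up 4858 and 4852 CPM in wild type, 3144 and 3105 in heterozygous and 6081 and 5980 in knockout.

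**Figure D2:**
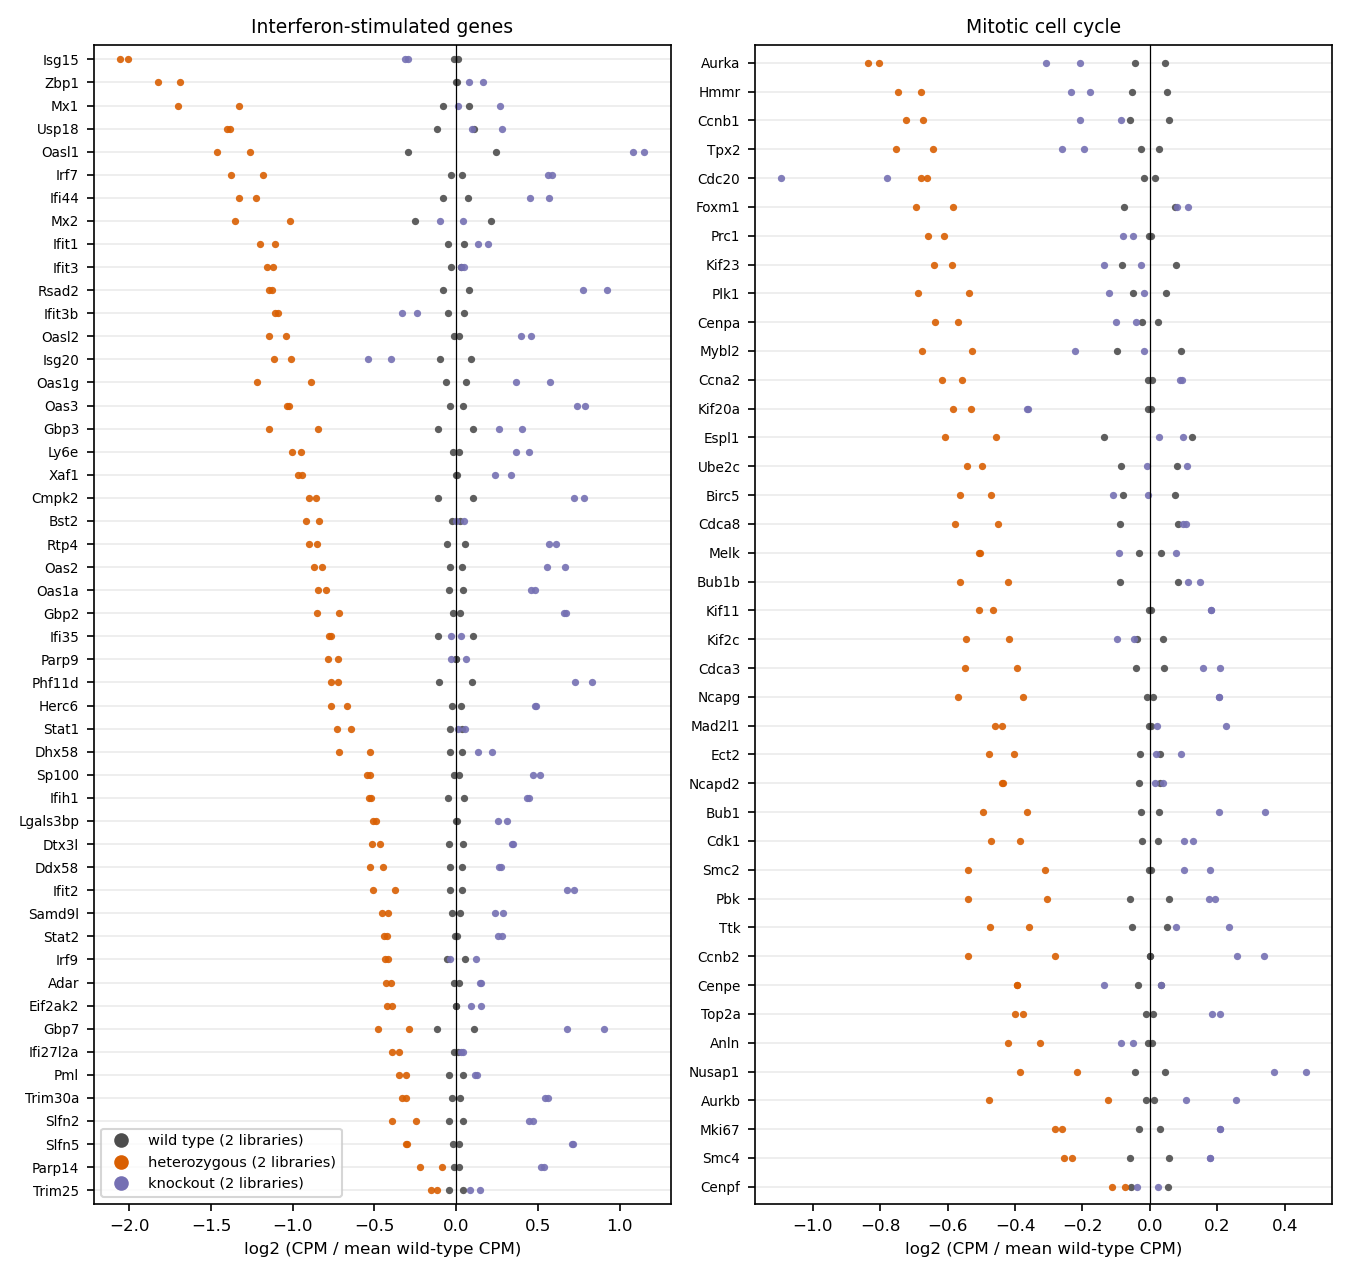
Level of each of 50 interferon-stimulated genes and 40 mitotic genes in each of the 6 libraries, as log2 of CPM relative to the mean of the 2 wild-type libraries; each row is a gene, each point a library, and colours give the genotype. Both heterozygous libraries sit to the left of the wild-type libraries for all genes of both panels, and in the interferon panel the knockout libraries lie to their right for all 50 genes.

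Genes of the Ifi200 cluster, a tandem family of interferon-inducible DNA sensors on chromosome 1, followed the same direction with an exception. Of 11 tested members, 9 fell. Mndal went from 44.3 and 43.01 to 12.5 and 12.3 CPM (log2 -1.82 ± 0.08), Ifi204 from 53.4 and 52.01 to 21.8 and 26.4 (log2 -1.12 ± 0.07) and Pydc4 from 5.02 and 4.18 to 0.589 and 0.503 (log2 -3.07 ± 0.27), with edgeR adjusted p at most 4.86e-13 for these 3. Ifi202b had 0 counts in all wild-type and knockout libraries and 1022 and 1118 counts in heterozygous cells, at least 400.1-fold higher than 3 counts per library would give. Ifi202b is known to be expressed in some inbred strains and not in others. Aim2, the inflammasome sensor of cytosolic DNA, was at 20.01 and 20.4 in wild type and 20.6 and 21.8 in heterozygous and did not pass the threshold (edgeR, adjusted p = 0.581). The members are close copies of each other, so reads may be split among them and single values are uncertain.

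Antigen presentation was touched in part. Of 16 tested genes of the class I pathway, 6 fell and 0 rose (1 rose without heterozygous library 2 and without wild-type library 2). The 6 that fell included the proteasome activator subunits Psme1 (log2 -0.32 ± 0.06, SE) and Psme2 (-0.63 ± 0.07), the immunoproteasome subunit Psmb10 (-0.61 ± 0.08) and the class Ib gene H2-T23 (-0.61 ± 0.05), with edgeR adjusted p at most 1.13e-05. B2m, the light chain of all class I molecules, was at 1194 and 1136 CPM in wild type and 1148 and 1162 in heterozygous, with overlapping libraries, and stood at 1833 and 1775 in knockout. H2-K1, a classical class I heavy chain with near-identical relatives, was at 55.9 and 63.4, 57.5 and 55.1 and 126 and 119 CPM in the same order. Against knockout, B2m was lower in heterozygous by -0.64 ± 0.02 log2 and H2-K1 by -1.12 ± 0.06 (SE, edgeR, adjusted p = 4.24e-26 and 1.13e-20). Of 5 tested genes of the class II pathway and its cofactors, Cd80, a ligand that co-stimulates T cells, fell from 57.9 and 59.2 to 18.9 and 17.7 CPM, Ctss fell as described further on, and 0 rose.

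Genes of receptors and kinases upstream went both ways. The pattern receptor genes Ddx58 and Ifih1 and the kinase gene Eif2ak2 were counted among the interferon-stimulated genes, which all fell. In the list of interferon and pattern receptor signalling, 7 of 25 tested genes rose and 6 fell (fewer fell without heterozygous library 1). These shares, 28% and 24%, were not far from the background shares of 19.3% and 20.1%. Jak1, the kinase on the interferon receptor, went from 324 and 331 to 440.5 and 418 CPM, Ifnar2, a chain of the type I receptor, from 97.1 and 104 to 139 and 135, and Ifngr1, a chain of the interferon gamma receptor, from 92.9 and 96.5 to 129 and 124 (edgeR, adjusted p at most 2.67e-10). All 3 rose, with no overlap between the genotypes. Trex1, a nuclease that clears cytosolic DNA, and Tmem173, the DNA-sensing adaptor STING, fell by 0.45 and 0.32 on the log2 scale (edgeR, adjusted p = 6.86e-06 and 3.47e-05).

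Macrophages respond strongly to interferon, so their markers stand beside this result. Summed over 24 listed markers, macrophage genes made up 15959 and 15660 CPM in wild type, 18814 and 18670 in heterozygous and 18245 and 18051 in knockout, with Aif1 at 0 in every library. Of 22 tested, 11 rose and 4 fell. Their part in the fall of the interferon-stimulated genes was not tested. In bulk RNA, fewer cells of a type and less RNA per cell cannot be told apart, here and in every other group.

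Genes of cell division were lower in heterozygous cells. In the list of 40 mitotic genes, all tested, 39 fell and 0 rose, with a median log2 of -0.48, and both heterozygous libraries lay below both wild-type libraries for all 40. In the list of DNA replication and the G1/S transition, 31 of 35 tested genes fell and 0 rose, with a median of -0.41. No gene of either list fell by as much as 2-fold. Many mitotic genes carry a cell cycle homology region (TTTGAA) with a CCAAT box upstream, through which the MuvB complex and NF-Y act. Promoter stretches of 3 mitotic genes are shown because the motif is frequent in the list: 150 bases upstream of the start, read 5′ to 3′ along the gene's strand with TTTGAA or its reverse complement in capitals (RefSeq, GRCm38.p6), at chr7:80294326-80294475 (plus strand), chr11:99024190-99024339 (minus) and chr7:135716380-135716529 (minus).
Prc1: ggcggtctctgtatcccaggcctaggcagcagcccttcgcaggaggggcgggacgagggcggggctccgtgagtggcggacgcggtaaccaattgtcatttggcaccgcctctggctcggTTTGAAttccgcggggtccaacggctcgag
Top2a: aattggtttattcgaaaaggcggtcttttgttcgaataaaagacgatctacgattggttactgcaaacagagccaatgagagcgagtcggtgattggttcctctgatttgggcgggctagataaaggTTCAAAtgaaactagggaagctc
Mki67: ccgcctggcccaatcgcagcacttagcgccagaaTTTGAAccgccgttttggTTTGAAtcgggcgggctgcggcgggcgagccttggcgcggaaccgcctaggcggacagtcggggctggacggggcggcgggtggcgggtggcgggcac
The capitals end 25 bases before the start in Prc1 and 18 in Top2a, where they lie on the other strand, and Mki67 has a pair of them. Prc1 also has an annotated start farther upstream, which would place its capitals closer to the start.

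Among the mitotic genes with a promoter in the table, TTTGAA was found on either strand in 27 of 35 windows (77.1%), against 17.9% of all promoter windows of that length and 13.5% of windows of the replication list. CCAAT occurred in 28 of the 35 windows (80.0%), against 37.4% of all. Both motifs together were in 71.4%, against 6.95% of all.

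Tpx2, a microtubule nucleation factor of the spindle, went from 116 and 112 CPM in wild type to 67.5 and 72.9 in heterozygous (log2 -0.69 ± 0.05, SE, edgeR adjusted p = 1.66e-15). Prc1, which bundles microtubules of the midzone, went from 88.8 and 89.2 to 56.4 and 58.3 (log2 -0.63 ± 0.05), and Foxm1, a transcription factor of mitotic genes, from 77.4 and 69.7 to 45.5 and 49.1 (log2 -0.64 ± 0.06). Top2a, the topoisomerase that untangles sister chromosomes, was at 232 and 235 against 179.9 and 177 CPM and Mki67, the proliferation antigen, at 429 and 449 against 366 and 361. In every one of these 5 genes both heterozygous libraries lay below both wild-type libraries. Cenpf was the mitotic gene that did not pass. Among replication genes, Rrm1, the large subunit of ribonucleotide reductase, fell by 0.50 on the log2 scale, E2f2, an activator of S phase genes, by 0.79, and Pcna, the sliding clamp, by 0.22 (edgeR, adjusted p at most 4.33e-05).

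Heterozygous cells were again below knockout as well. Of the mitotic genes 38 of 40, and of the replication genes 32 of 35, were lower in heterozygous than in knockout cells (19.4% of all autosomal genes). Top2a stood at 265 and 269.5 CPM in knockout, a difference of -0.58 ± 0.03 log2 (SE, edgeR, adjusted p = 6.97e-19). The p53 and senescence list stood near the background, with 20% higher and 28% lower against 19.3% and 20.1% of all autosomal genes. It held 5 higher and 7 lower of 25 genes (fewer higher without wild-type library 1). In it Cdkn1a, the cyclin kinase inhibitor p21, fell from 271 and 278 to 243 and 247 CPM (edgeR, adjusted p = 2.65e-05), Lmnb1, a lamin lost in senescent cells, from 66.5 and 65.9 to 40.0 and 42.1, and Sesn1, a stress-inducible p53 target, rose from 49.3 and 45.3 to 81.6 and 84.2.

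Matrix genes, the products that Chsy3 chains are attached to or lie among, were higher in several groups. Of 25 tested proteoglycan core proteins, from 34 listed, 13 rose and 5 fell (median log2 0.27). Fmod, which encodes fibromodulin, a small leucine-rich proteoglycan that binds collagen fibrils, went from 803 and 820.0 CPM in wild type to 2216 and 2151 in heterozygous, and stood at 799.9 and 800.2 in knockout. It rose 2.69-fold (log2 1.43 ± 0.02, SE, edgeR adjusted p = 1.51e-39), and heterozygous cells stood apart from both other genotypes. Dcn, which encodes decorin, a carrier of a chondroitin or dermatan sulfate chain, rose 2.997-fold, from 115 and 112 to 343 and 339.7 CPM. Prelp rose 2.27-fold, from 851 and 841 to 1924 and 1908, and Ogn, which encodes osteoglycin, 1.91-fold, from 126 and 129 to 241 and 245. Esm1, which encodes the secreted dermatan sulfate proteoglycan endocan, rose 8.999-fold, from 4.99 and 3.15 to 35.9 and 37.4. Hspg2, which encodes perlecan of basement membranes, rose by 0.27 log2. The largest edgeR adjusted p of these 6 genes was 7.38e-14.

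Enzymes that build chondroitin and dermatan sulfate split evenly, with 8 higher and 9 lower of 25 tested (median log2 0.05). Chpf2, a partner of the chondroitin synthases, fell from 168 and 165 to 72.9 and 80.2 CPM (log2 -1.12 ± 0.05, SE), with knockout at 120.2 and 122. Csgalnact1, which adds the sugar that commits a linker to chondroitin, rose from 71.5 and 75.3 to 109 and 111 (log2 0.58 ± 0.05), with knockout below wild type at 47.8 and 52.4. Chst15, the sulfotransferase that adds a further sulfate to sulfated chondroitin units, fell from 15.1 and 13.03 to 6.07 and 4.24 (log2 -1.45 ± 0.17), and Chpf, another synthase partner, and Dsel, a dermatan epimerase, rose by 0.19 and 0.37 log2. For these 5 genes the edgeR adjusted p was at most 8.37e-05. Directions thus differed within the pathway and even between Chpf2 and Chpf.

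Heparan sulfate and hyaluronan genes also went both ways. Of the heparan sulfate genes 18.75% were higher and 18.75% lower, near the background shares of 19.3% and 20.1%. In heparan sulfate synthesis and editing, 3 of 16 rose (1 without heterozygous library 1) and 3 fell: Sulf1, which removes sulfate outside the cell, from 345 and 352 to 219.8 and 226 CPM, Glce, the epimerase, from 80.2 and 87.2 to 49.8 and 52.3, and Ext1, a chain polymerase, from 148 and 156 to 116 and 117. Hs3st3b1, a sulfotransferase, was the clearest increase, from 1.59 and 1.29 to 4.16 and 3.71. Among 11 hyaluronan genes, Has2, the main synthase of mesenchymal cells, fell from 29.1 and 32.2 to 21.04 and 22.3, Cd44, the cell surface receptor, from 438 and 435 to 306 and 317, and Cemip, which starts hyaluronan breakdown, from 1344 and 1358 to 1219.8 and 1191. Stab1, a scavenger receptor for hyaluronan found on macrophages, rose from 848 and 838 to 1440.3 and 1408. The edgeR adjusted p was at most 0.000248 for the 8 genes named. Has2 was higher in heterozygous than in knockout cells, which stood at 14.01 and 14.4 CPM.

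Lysosomal enzymes that take glycosaminoglycans apart were mostly higher, 10 of 14 tested against 3 lower (median log2 0.21). Hpse, the heparanase, rose from 68.2 and 68.4 to 101 and 101 CPM, Sgsh, a heparan sulfamidase, from 86.7 and 81.1 to 116 and 118, and Hexa, the alpha chain of hexosaminidase, from 346 and 334 to 387 and 372 (edgeR, adjusted p at most 1.18e-05 for these 3). Against knockout the order was the reverse of that against wild type: 9 of the 14 were lower in heterozygous cells and 1 higher. Gusb, the glucuronidase, was at 282 and 269.9 CPM in wild type, 320.1 and 314 in heterozygous and 433 and 436 in knockout.

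Of 11 tested fibrillar collagens 8 rose and 2 fell, with a median log2 of 0.36. Col3a1, the collagen of loose tissue, rose from 3497 and 3558 CPM to 5226 and 5099.8 (log2 0.55 ± 0.02, SE, edgeR adjusted p = 1.32e-27). Col11a1, which nucleates thin fibrils, rose from 318 and 336 to 494 and 488 (log2 0.59 ± 0.03), and Col5a2 from 2432 and 2484 to 3172 and 3129.9. Type I collagen rose by less: Col1a2 went from 6520.3 and 6656 to 7788 and 7512 and Col1a1 by 0.16 ± 0.02 log2. Col2a1, the collagen of cartilage and of the nucleus pulposus, was the clear exception and fell from 22.9 and 22.6 to 6.17 and 5.12 (log2 -2.01 ± 0.12), while knockout, at 21.7 and 20.9, lay close to wild type.

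Against knockout, the fibrillar collagens of heterozygous cells were higher too. In the direct contrast 9 of 11 fibrillar collagens were higher in heterozygous than in knockout cells and 1 lower, against 18.1% higher and 19.4% lower over all autosomal genes, with a median of 0.90 log2. Col1a1 stood at 5446 and 5378 CPM in knockout and was higher in heterozygous by 1.12 ± 0.02 log2, Col3a1 by 1.01 ± 0.02 and Col11a1 by 1.32 ± 0.03 (SE, edgeR, adjusted p at most 8.26e-33). Summed CPM of the list were 25403 and 25948 in wild type, 30618 and 29831 in heterozygous, and 15327 and 15330 in knockout.

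Among other collagens, 9 of 16 tested were higher and 4 lower (2 lower without heterozygous library 1 or 2, 1 without wild-type library 1). Col12a1, a fibril-associated collagen of tendon and annulus, rose from 2200 and 2265 to 3399 and 3323 CPM, Col8a2 from 25.2 and 26.6 to 78.9 and 75.9 and Col28a1 from 6.20 and 6.18 to 34.1 and 31.1. Col8a1, the partner chain of Col8a2 in short-chain networks, fell from 999 and 1028 to 569.9 and 557. In basement membranes 7 of 17 genes rose and 5 fell. Both main chains of collagen IV fell, Col4a1 from 1061 and 1062 to 610.1 and 613 CPM and Col4a2 from 847 and 872 to 600.4 and 594, and so did Lama2, a laminin chain. Nid1, which links laminin to collagen IV, and Lamb1 rose by 0.29 and 0.35 log2. The largest edgeR adjusted p of these 9 genes was 3.18e-12. Collagen IV was lower still in knockout, where Col4a1 stood at 311 and 300.2.

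Enzymes that process collagen split into 11 higher and 8 lower of 24 tested, and 20 of the 24 were higher than in knockout with 0 lower. Lox, the lysyl oxidase that crosslinks collagen and elastin, rose from 6743 and 6889 to 8998 and 8964 CPM, Adamts2, the procollagen peptidase, from 164 and 160.3 to 294 and 286, and Pcolce, which speeds removal of the C-propeptide, from 431 and 424 to 559 and 567. Plod2, the lysyl hydroxylase of telopeptides, fell from 383 and 391 to 308 and 297, and Serpinh1, the collagen chaperone HSP47, from 1243 and 1252 to 1079 and 1097 (edgeR, adjusted p at most 5e-10 for these 5).

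Elastic fibre and matricellular genes leaned the same way, with 19 of 30 rising and 6 falling (median log2 0.22). Comp, the pentameric thrombospondin of cartilage and annulus, went from 27.3 and 30.004 CPM in wild type to 257 and 247 in heterozygous, with knockout at 87.2 and 80.3. It rose 8.79-fold (log2 3.14 ± 0.05, SE, edgeR adjusted p = 2.25e-38), and the 3 genotypes did not overlap. Postn, which encodes periostin, rose 2.97-fold, from 1049 and 1043 to 3124 and 3097, while knockout lay below wild type at 507 and 509.6. Ltbp2, a microfibril protein, rose from 614 and 637 to 1084 and 1065. The calcium-binding matrix proteins Smoc1 and Smoc2 fell, Smoc1 from 432 and 435 to 34.5 and 34.5 CPM (log2 -3.65 ± 0.04) and Smoc2 from 71.2 and 73.95 to 4.54 and 3.62 (log2 -4.16 ± 0.11). Thbs1, an activator of TGF-beta, rose from 12808 and 12981 to 16207 and 15853, and Thbs2 fell from 839 and 845 to 529 and 523. Spp1, which encodes osteopontin, fell by 0.11 log2 against wild type. For these 8 genes the edgeR adjusted p was at most 3.47e-08.

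**Figure D3:**
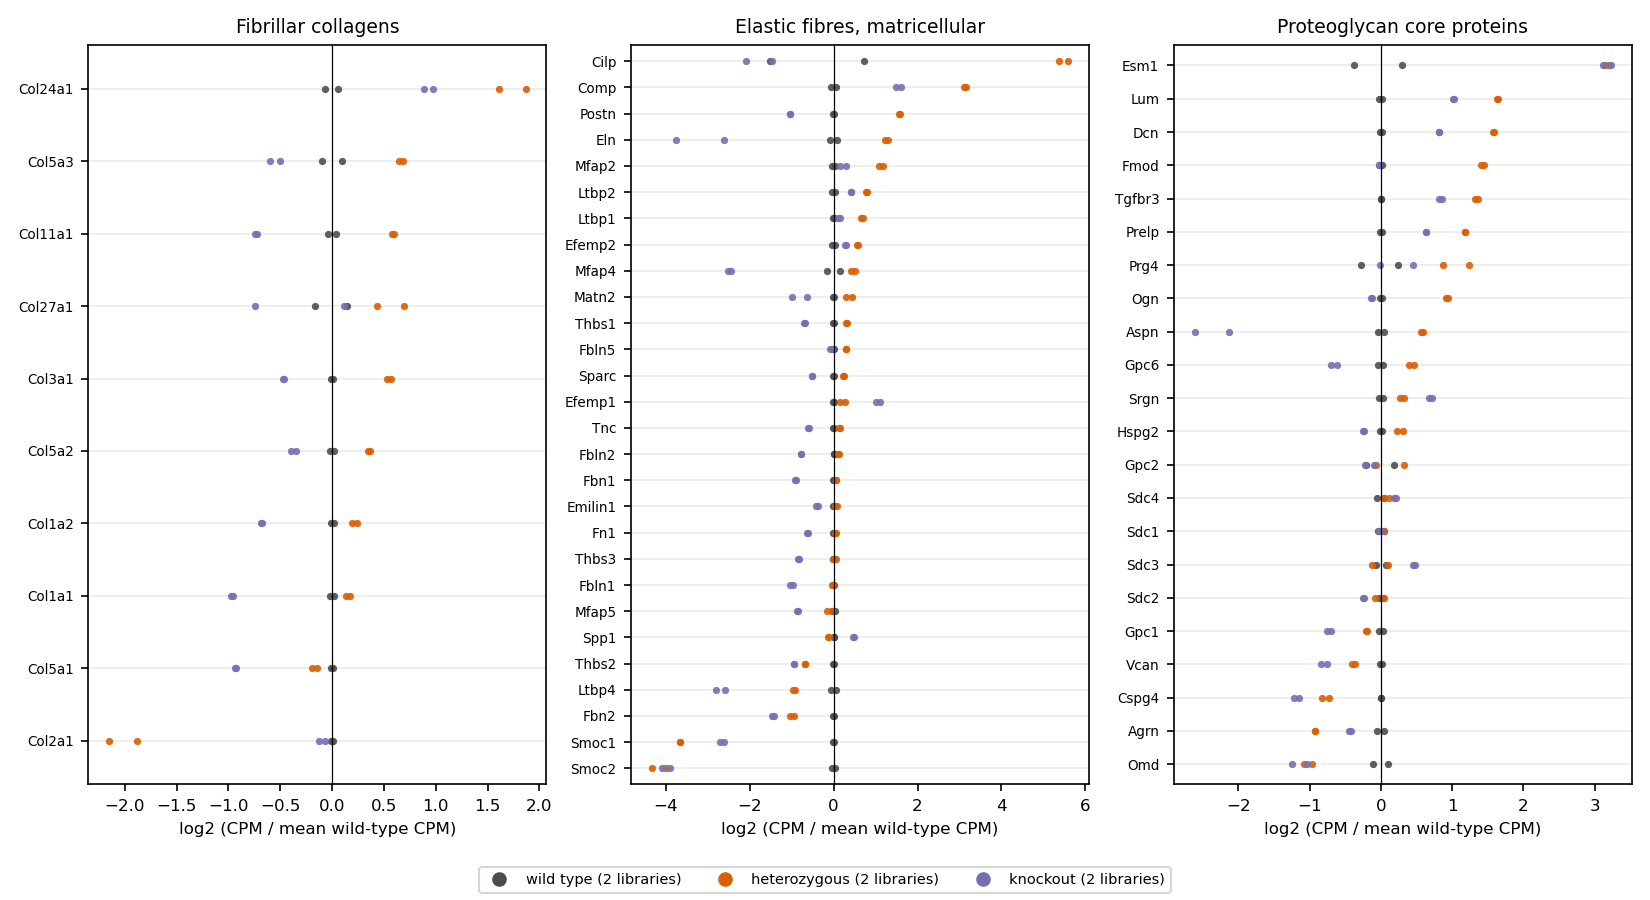
Level of each fibrillar collagen, elastic fibre or matricellular gene and proteoglycan core protein with a mean of at least 1 CPM, as log2 of CPM relative to the mean of the 2 wild-type libraries, in each of the 6 libraries; each row is a gene, each point a library, and colours give the genotype. Most heterozygous points lie to the right of wild type, and Col2a1, Smoc1 and Smoc2 lie far to the left.

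Proteases that cut matrix rose in 18 cases out of 32 and fell in 8 (median log2 0.17). Adamts5, an aggrecanase, rose from 378 and 393 to 896 and 881 CPM (2.30-fold, edgeR adjusted p = 2.21e-34), Mmp2, a gelatinase, from 207 and 199 to 432 and 426, and Mmp13, the collagenase of cartilage, from 32.8 and 33.2 to 99.4 and 96.9. Adamts9, a versicanase, rose 5.14-fold, from 5.26 and 6.06 to 29.3 and 28.9. Adam12 fell from 147 and 157 to 45.6 and 49.4. Of 10 tested inhibitors, Serpine2, which encodes protease nexin, rose from 123 and 120.1 to 386 and 386 CPM, Timp2 from 1745 and 1688 to 2120.3 and 2184 and Reck, a membrane-bound inhibitor, from 50.3 and 50.4 to 94.8 and 91.4. Timp3 fell by 0.26 log2. All of these passed edgeR with adjusted p at most 1.93e-13.

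Markers of fibroblasts and of the annulus moved with the matrix genes, and their part in those results was not tested. Of 24 fibroblast markers, 13 were higher and 3 lower, with a median log2 of 0.16 and a range from -3.68 to 5.24. Their summed CPM were 29751 and 30133 in wild type, 36926 and 36201 in heterozygous and 19321 and 19208 in knockout. These sums are set largely by collagens that the matrix lists also hold. Outside the collagens, Pdgfra, the receptor that marks fibroblasts and their progenitors, rose from 93.4 and 94.5 to 289.7 and 300.2 CPM, Cd34, a surface marker of adventitial fibroblasts, from 27.4 and 22.4 to 151 and 154, and Dpt, which encodes dermatopontin, from 17.5 and 14.5 to 67.6 and 66.9 (edgeR, adjusted p at most 5.04e-26).

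Of 11 tested markers of annulus fibrosus, tendon and ligament 9 rose and 1 fell, with a median log2 of 0.77. Thbs4, a thrombospondin of tendon, was at 2.12 and 2.29 CPM in wild type, 106 and 101 in heterozygous and 0.576 and 1.49 in knockout, and rose 46.8-fold (log2 5.55 ± 0.12, SE, edgeR adjusted p = 6.03e-27). Cilp, a protein of the cartilage intermediate layer, was at 0.0881 and 0.412 in wild type and 10.4 and 12.1 in heterozygous. Mkx, a homeobox regulator of tendon and annulus, rose from 3.41 and 4.71 to 20.2 and 18.6, and Scx, the tendon regulator scleraxis, from 2.82 and 2.41 to 7.76 and 6.98. In knockout Mkx stood at 5.22 and 4.19 CPM and Scx at 1.49 and 2.34. Heterozygous cells were higher than knockout cells by 6.63 ± 0.14 log2 for Thbs4, 2.05 ± 0.16 for Mkx and 1.94 ± 0.25 for Scx (SE, edgeR, adjusted p at most 1.41e-08). Egr1, an immediate early gene that also acts in tendon, was the member that fell. Tnxb did not pass.

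Lineage regulators of the skeleton followed. Of 31 tested skeletal transcription factors, 17 rose and 7 fell (median log2 0.83), and 19 were higher and 2 lower than in knockout. Sox9, the regulator of cartilage, rose 3.60-fold, from 15.2 and 16.7 to 56.8 and 58.2 CPM (edgeR, adjusted p = 1.84e-22), with knockout at 21.5 and 23.9. Runx1 rose from 134 and 132 to 187 and 184. Among those that fell, Foxc2 went from 65.5 and 63.7 to 8.70 and 6.38 CPM (log2 -3.11 ± 0.10), its relative Foxc1 from 103 and 109.8 to 56.5 and 59.5, Tbx15 from 50.2 and 47.9 to 22.7 and 23.5 and Prrx1, a limb mesenchyme factor, from 299.7 and 311 to 229 and 236 (edgeR, adjusted p at most 1.72e-13 for Runx1 and these 4). Among 10 tested chondrocyte markers 4 rose and 1 fell, with Comp and Sox9 rising and Col2a1 falling, so the cartilage markers did not move as a block. Osteoblast and hypertrophic markers split 3 to 3 of 9, and Runx2, the osteoblast regulator, was at 34.5 and 35.9 and 34.9 and 30.7 CPM and did not pass.

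Hox genes, which encode position along the body axis, gave 8 higher and 15 lower of 32 tested. Split by cluster, a division made after the values were seen, all 6 tested genes of the Hoxd cluster rose, while 5 of 8 tested Hoxb and 5 of 8 tested Hoxc genes fell and 0 rose. In the Hoxa cluster 2 of 10 rose and 5 fell. Hoxd9 went from 7.14 and 7.38 to 14.8 and 17.2 CPM (log2 1.14 ± 0.14, SE) and Hoxa10 from 23.8 and 26.1 to 41.6 and 40.6 (log2 0.72 ± 0.08). Hoxc8 fell from 29.97 and 32.5 to 14.9 and 17.4, Hoxc9 from 25.8 and 29.3 to 11.7 and 15.6 and Hoxb9 from 135 and 132 to 86.03 and 79.2, with edgeR adjusted p at most 1.36e-08 for these 5. Antisense transcripts lie within these clusters, and whether counting used strand was not given in the sources used here.

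Markers of the meninges and arachnoid, the membranes that wrap the spinal cord, were lower in heterozygous cells. Of 19 tested, 12 fell and 1 rose, with a median log2 of -1.23, and the summed CPM of 24 listed markers were 1305 and 1319 in wild type, 696 and 691 in heterozygous and 811 and 783 in knockout, with Slc22a6 among those at 0 in every library. S100a6 alone made up 56.1% of the summed level over the 6 libraries and fell by less (log2 -0.63). Aldh1a1 was the marker that rose (log2 1.38, edgeR adjusted p = 2.92e-13). Gjb2, which encodes connexin 26 of gap junctions, fell 78.1-fold, from 126 and 125 CPM to 2.01 and 1.23 (log2 -6.29 ± 0.12, SE, edgeR adjusted p = 2.29e-36). Slc4a10, a bicarbonate transporter, fell from 26.03 and 28.5 to 0.277 and 0.440, Perp, a desmosome protein, from 29.1 and 28.3 to 2.56 and 1.76, and Zic1, a transcription factor of the dorsal neural tube and meninges, from 75.7 and 79.1 to 17.3 and 14.9. Foxd1, a stromal and meningeal factor, fell from 88.2 and 89.95 to 20.2 and 20.2. Knockout libraries were low for the same genes, at 9.58 and 11.96 for Gjb2 and 18.5 and 19.9 for Zic1, and in the direct contrast heterozygous cells were lower still for Gjb2 (log2 -2.75 ± 0.15, SE, edgeR adjusted p = 4.79e-19). Epithelial markers, which share Perp and Krt19, summed to 46.2 and 48.1 CPM in wild type and 5.44 and 2.86 in heterozygous.

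Among 15 markers of smooth muscle and of myofibroblasts 8 fell and 3 rose (1 rose without heterozygous library 2 and without wild-type library 1). Acta2, which encodes smooth muscle actin, fell from 2569 and 2524 to 1800.5 and 1813 CPM, Tagln, which encodes transgelin, from 859 and 844 to 530.1 and 547, and Actg2, the enteric smooth muscle actin, from 157 and 155 to 29.9 and 29.99 (edgeR, adjusted p at most 1.35e-24). Acta2 and Tagln were lower again in knockout, at 1546 and 1531 and 423 and 405. Mylk, the kinase of myosin light chains, was among the markers that rose against wild type (log2 0.59, edgeR adjusted p = 1.63e-13). Adipocyte markers were higher in all 8 tested of 12 listed, with a median log2 of 1.28, and both heterozygous libraries lay above both wild-type libraries for all 8. Lpl, the lipoprotein lipase, rose from 149.9 and 149 to 273 and 271, Pparg, the regulator of fat cell formation, from 6.67 and 6.41 to 11.5 and 11.8, Cebpa from 41.6 and 39.98 to 71.96 and 73.6, and Adipoq, which encodes adiponectin, from 0.264 and 0.382 to 1.77 and 1.82. The largest edgeR adjusted p of these 4 was 2.92e-05, and Lep was at 0 in every library. Members of a list that fell below the filter in every genotype could not be called, so these counts describe only the tested genes.

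Among blood-derived cells, macrophage markers were the abundant ones. Mrc1, the mannose receptor of tissue macrophages, rose from 749.7 and 751 to 1840.1 and 1863 CPM, Adgre1, which encodes F4/80, from 404 and 399 to 516 and 519, and Lyz2, a lysozyme, from 7296 and 7120.2 to 8841 and 8841. Cx3cr1, the fractalkine receptor, fell from 139.8 and 139 to 32.7 and 32.5, and Siglec1, itself induced by interferon, from 389 and 391 to 285 and 274 (edgeR, adjusted p at most 3.2e-15 for these 5). Of 7 tested osteoclast markers 5 rose, among them Itgb3, at 30.6 and 29.8 against 44.6 and 42.8, and Nfatc1, at 49.8 and 52.2 against 71.8 and 66.1. Of 4 tested dendritic cell markers 1 fell, Itgax, from 9.81 and 11.8 to 5.62 and 6.57. No marker of neutrophils, mast cells or red cells passed the filter, and of 12 lymphocyte markers Cd4 alone did, at 0.294 and 0.118 in wild type and 1.73 and 1.67 in heterozygous (edgeR, adjusted p = 0.000633). Endothelial markers summed to 45.5 and 43.9 CPM in wild type and 38.1 and 35.1 in heterozygous.

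**Figure D4:**
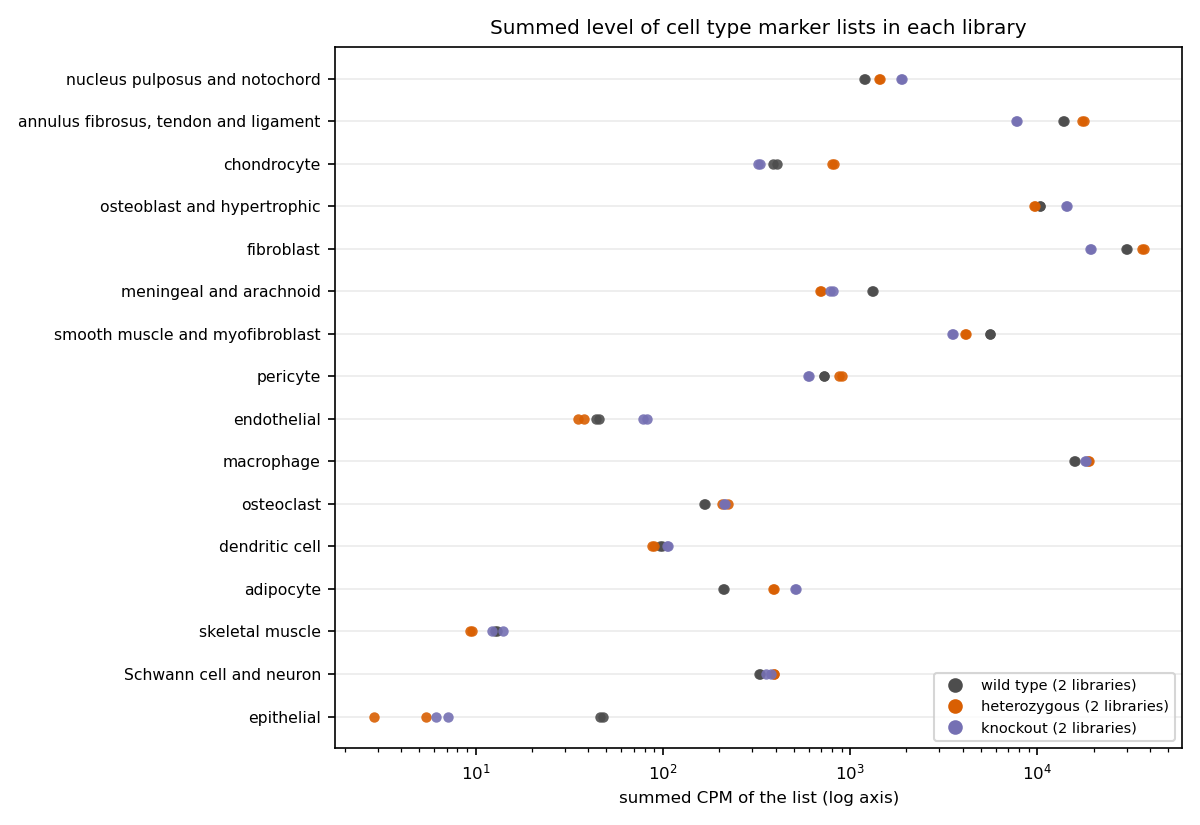
Summed CPM of the markers of each cell type in each of the 6 libraries, on a log axis, with 1 point per library and colours for the genotypes. Heterozygous libraries lie above wild type for fibroblast, annulus, macrophage and adipocyte markers and below it for meningeal, smooth muscle and epithelial markers. Over the 6 libraries, Col1a1 alone makes up 71.0% of the annulus sum and Lpl 71.8% of the adipocyte sum. Adipocyte sums are higher still in knockout.

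Secreted signals differed as well, among them those of the Wnt pathway, in which extracellular ligands steer beta-catenin. Of 30 tested Wnt genes, 16 rose and 8 fell (median log2 0.30). The secreted antagonists Sfrp2 and Sfrp1, which bind Wnt ligands, rose 24.7-fold and 3.48-fold: Sfrp2 from 6.14 and 6.06 CPM to 151 and 151, and Sfrp1 from 221 and 205 to 752 and 733. Sfrp2 stood higher still in knockout, at 215 and 212, whereas Sfrp1 stood at 301 and 302, nearer wild type. Agonists rose too, Rspo2 from 112 and 114 to 287 and 293 and Rspo3 from 25.97 and 26.4 to 66.2 and 65.9. Lrp6, the co-receptor, rose by 0.39 log2, and Ctnnb1, which encodes beta-catenin, was at 574 and 592 and 566 and 568 CPM and did not pass. For the 5 genes that rose the edgeR adjusted p was at most 3.9e-14.

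TGF-beta and BMP genes went both ways. In the TGF-beta list 9 of 25 rose and 12 fell. The targets Pmepa1, Ctgf and Tgfbi fell, Pmepa1 from 226 and 227 to 75.1 and 79.1 CPM, Ctgf from 1060.1 and 1084 to 614 and 600.5 and Tgfbi from 373 and 373 to 183 and 165, while Tgfbr3, which encodes the co-receptor betaglycan, rose from 91.05 and 91.1 to 233 and 227. In the BMP list 7 of 27 rose and 9 fell. The BMP targets Id1 and Id3 fell, from 82.2 and 88.5 to 47.04 and 49.9 and from 256 and 249.8 to 179 and 175, and Id4 rose, from 2.38 and 3.27 to 10.6 and 9.87. Grem1, a BMP antagonist, rose from 18.9 and 21.9 to 61.1 and 59.4, and Gdf10, a ligand, fell from 19.2 and 20.9 to 3.33 and 4.21. The edgeR adjusted p was at most 1.77e-10 for these 9 genes. Both antagonist and ligand genes of the BMP list were farther from wild type in knockout than in heterozygous cells, with Grem1 at 126 and 134 and Gdf10 at 0.819 and 1.08.

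Growth factor genes were higher in part. Among 17 IGF genes 8 rose and 3 fell: Igfbp4 went from 538 and 547 to 1090.4 and 1054 CPM, Igfbp3 from 2.59 and 2.65 to 18.995 and 18.2, Igf1 from 312 and 297 to 399 and 401 and Igf2 from 35.05 and 37.8 to 60.3 and 57.6. Of 21 imprinted growth regulators, 11 rose and 2 fell (1 fell without heterozygous library 1 or without wild-type library 1), with Mest, a gene of the imprinted growth network, rising 5.36-fold, from 11.05 and 8.82 to 52.3 and 54.2, and Cdkn1c, the cyclin kinase inhibitor p57, 16.5-fold, from 0.940 and 0.618 to 12.3 and 13.6. Both were much closer to wild type in knockout, at 11.1 and 12.6 and 3.09 and 1.73. In the FGF, PDGF and EGF list 11 of 28 rose and 5 fell. Hgf rose from 19.5 and 20.7 to 62.9 and 65.7, Kitl, the stem cell factor, from 19.2 and 20.5 to 69.5 and 66.05, and Fgf10 from 28.3 and 34.4 to 89.8 and 75.7. The largest edgeR adjusted p of these 9 genes was 2.19e-11.

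Genes of vasoactive peptides, their receptors and peptidases rose in 8 cases out of 11 and fell in 0, with a median log2 of 2.05. Ednrb, the type B endothelin receptor, rose 8.05-fold, from 7.43 and 7.74 CPM to 58.99 and 63.1, Mme, the peptidase neprilysin, from 12.5 and 12.4 to 57.9 and 57.4, Agt, which encodes angiotensinogen, from 1.88 and 1.32 to 11.5 and 10.7, and Agtr1a, the angiotensin receptor, from 2.20 and 1.71 to 9.01 and 9.78 (edgeR, adjusted p at most 1.02e-11). Ednra, the type A receptor, was at 8.78 and 8.30 and 8.67 and 10.4 and did not pass.

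Complement genes were mostly higher: 12 of the 17 tested rose and 1 fell (median log2 0.83). C1s1 and C1ra, proteases that start the classical cascade, rose from 47.5 and 46.7 to 175 and 166 CPM and from 40.1 and 38.5 to 115 and 115. C3, the central component, rose from 169.9 and 173 to 314 and 298. C1qa, a chain of the recognition protein made by macrophages, was the gene that fell, from 1190.5 and 1158 to 1112 and 1051, and C1qb and C1qc did not pass. For these 4 changes the edgeR adjusted p was at most 6.84e-05.

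Chemokines split into 8 higher and 6 lower of 19 tested. Cxcl12, which holds blood stem cells and lymphocytes in their niches, was at 356 and 360.3 CPM in wild type, 1567 and 1573 in heterozygous and 1611 and 1569.6 in knockout. It rose 4.38-fold (log2 2.13 ± 0.02, SE, edgeR adjusted p = 2.51e-45), and heterozygous and knockout libraries overlapped. Ccl8 rose from 17.8 and 14.9 to 50.7 and 54.7, and the interferon-inducible Cxcl10 fell from 8.11 and 8.68 to 3.92 and 2.58. Ccl2, the monocyte chemokine, was at 61.1 and 56.4 and 58.1 and 58.7 CPM in wild type and heterozygous, without passing, and at 137 and 138 in knockout. Among cytokine genes 7 of 23 rose and 6 fell, with Il33, an alarmin of stromal cells, falling from 238 and 223 to 59.2 and 61.1, Il6st, the shared receptor gp130, rising from 1317 and 1334 to 2211 and 2187, and Il1r1, the interleukin 1 receptor, from 25.7 and 26.6 to 63.2 and 73.5 (edgeR, adjusted p at most 9.33e-08 for these 3 and for Ccl8 and Cxcl10).

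Cytoskeletal genes were lower. Of 40 tested genes of the actin cytoskeleton and focal adhesion, 27 fell and 1 rose (2 rose without heterozygous library 1), with a median log2 of -0.21 and none lower by 2-fold. Myh9, the heavy chain of nonmuscle myosin, fell from 2839.6 and 2878 to 2232 and 2190.2 CPM, and Actb by 0.17 on the log2 scale. Fhl2, a LIM-domain protein, was the gene that rose, from 81.001 and 84.3 to 145 and 147. In the YAP/TAZ and mechanosensing list 12 of 22 fell and 6 rose. Piezo2, a stretch-activated channel, fell from 143 and 143 to 26.8 and 24.1 (log2 -2.50 ± 0.07, SE), Cyr61, a YAP target, from 699 and 697 to 536 and 519, and Ankrd1, another target, rose from 5.29 and 6.03 to 14.4 and 15.3. The integrin chain genes Itgb1 and Itga5 fell by 0.41 and 0.50 log2, and Itga1 and Itga11 rose by 1.04 and 0.29. The largest edgeR adjusted p of these 10 genes was 2.05e-10.

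Immediate early genes, which respond within minutes to serum or handling, fell in 12 cases out of 25 and rose in 3 (1 rose without heterozygous library 2 or without wild-type library 1). Egr1 fell from 74.2 and 78.8 to 29.4 and 28.7 CPM, Dusp1, a phosphatase, from 69.9 and 72.7 to 45.8 and 44.1, and Myc from 51.4 and 57.6 to 34.8 and 36.1 (edgeR, adjusted p at most 6.7e-10).

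Genes of serine synthesis, respiration and the ribosome were lower, mostly by small amounts. In the list of serine synthesis and amino acid stress 20 of 26 fell and 1 rose (0 rose without heterozygous library 1 or 2, wild-type library 2 or either knockout library), with a median log2 of -0.43. Phgdh, which commits glycolytic carbon to serine, fell from 178 and 168 to 76.98 and 81.6 CPM (log2 -1.12 ± 0.05, SE), Psat1, the next enzyme, from 187 and 196 to 109 and 113, and Slc7a11, the cystine carrier, from 41.9 and 44.2 to 9.57 and 7.64 (log2 -2.33 ± 0.10). Atf4, the regulator of these genes, fell by 0.17 log2. Of 48 nuclear-encoded respiratory genes 25 fell and 0 rose (median log2 -0.18), with Atp5b, a catalytic subunit of ATP synthase, at 705 and 699.8 against 562 and 572. Of 60 genes for cytosolic ribosomal proteins 43 fell and 1 rose (0 rose without heterozygous library 2), with a median log2 of -0.20 and Rps2 at 759 and 736 against 571 and 561. Many of them have processed copies elsewhere in the genome, so their counts are less certain. The edgeR adjusted p was at most 0.000129 for the 6 genes named.

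In the list of the hypoxia response and glycolysis 14 of 30 rose and 9 fell. Epas1, which encodes HIF-2 alpha, rose 3.44-fold, from 25.8 and 26.1 to 89.5 and 89.2 CPM, Hif1a from 461 and 464 to 636 and 611, and Car9, a hypoxia-induced carbonic anhydrase, from 14.2 and 14.3 to 46.9 and 41.6. The glycolytic enzymes Ldha and Pkm fell by 0.34 and 0.23 on the log2 scale (edgeR, adjusted p at most 1.74e-14 for these 5). Car9 and Hif1a were near wild type in knockout, at 18.5 and 15.7 and 461 and 471. Among lysosomal proteases, membrane proteins and pump subunits 18 of 33 rose and 5 fell (3 fell without heterozygous library 1 or wild-type library 1). Ctsb, a cathepsin, rose from 4244 and 4220 to 5570.3 and 5543, and Ctss, the cathepsin of antigen-presenting cells, fell from 831 and 806 to 573 and 583 (edgeR, adjusted p at most 1.36e-21). In knockout Ctsb stood at 6709.8 and 6592, and 24 of the 33 genes were lower in heterozygous than in knockout cells. Of 26 antioxidant genes 8 rose and 9 fell (median log2 -0.07). Sod3, the extracellular superoxide dismutase, rose from 97.98 and 98.1 to 267 and 258, Gpx3, the secreted glutathione peroxidase, from 26.8 and 26.6 to 98.2 and 102, and Sod1, the cytosolic form, fell from 93.9 and 100.3 to 69.3 and 68.97 (edgeR, adjusted p at most 8.81e-11).

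Guidance cues held large decreases. Of 32 tested, 10 rose and 14 fell. Sema3d fell 27.4-fold, from 81.2 and 81.5 CPM to 2.50 and 3.40, Efnb2, an ephrin, from 123 and 119 to 36.2 and 34.5, and Slit2 from 227 and 221 to 92.1 and 88.02. Other class 3 semaphorins rose, Sema3b from 10.2 and 9.88 to 52.3 and 51.9 and Sema3f from 28.4 and 27.3 to 75.7 and 84.3 (edgeR, adjusted p at most 5.86e-23 for these 5). Hes1, a Notch target, fell from 35.8 and 34.6 to 9.67 and 9.97, and its ligand gene Jag1 from 61.2 and 57.7 to 39.7 and 43.6 (edgeR, adjusted p = 7.26e-19 and 2.67e-08).

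The 15 largest increases and 15 largest decreases were also taken by size alone, among genes with an established symbol and a mean of log2 CPM over the 6 libraries of at least 3. Genes below that level held changes larger than some of these, among them Thbs4, Slc4a10 and Perp, described above, with means of 2.62, 0.85 and 2.49. The genes above it spanned secreted proteins, receptors and channels. Among them the order of the increases was Sfrp2 (chromosome 3, 83765750 to 83774314), then Clca3a1, a chloride channel regulator, from 2.88 and 2.88 to 39.7 and 39.5 CPM, and Sorbs2, an adaptor at actin fibres, from 5.99 and 6.35 to 66.6 and 58.6. Then came Esm1, Comp and Ednrb, described above. Serpina3n, an acute-phase protease inhibitor, rose from 4.70 and 4.88 to 38.2 and 34.8, Ppp1r3c, a regulator of glycogen, from 6.73 and 6.001 to 48.5 and 48.2, Ptgfr, the prostaglandin F receptor, from 4.05 and 3.94 to 30.8 and 27.7, and Hp, which encodes haptoglobin, from 35.1 and 36.8 to 232 and 243. Lrrn3, Limch1, Cd34, Dpep1 and Ccbe1 completed the increases, at 7.11-, 6.46-, 6.13-, 6.06- and 5.66-fold. The edgeR adjusted p was at most 1.25e-13 for these 15.

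Among genes above the same level the largest decrease was that of Gjb2 (chromosome 14, 57098602 to 57104702), followed by Sema3d (chromosome 5, 12383161 to 12588953). Slc4a4, a sodium bicarbonate carrier, fell from 98.8 and 91.3 to 4.71 and 5.47 CPM, and Serpinb9b, an inhibitor of granzyme-like proteases, from 71.4 and 63.7 to 4.40 and 3.99. Vnn1, the pantetheinase, fell from 81.4 and 73.9 to 6.86 and 7.23, and Akap12, a scaffold for protein kinases, from 1024 and 1031 to 156 and 154, the smallest edgeR adjusted p among the genes named here (7.78e-46). Atp1b1, a subunit of the sodium pump, went from 53.7 and 52.9 to 8.73 and 10.5. Smoc2, Smoc1, Foxc2, Ndnf, Piezo2, Actg2 and Slc7a11 were further members. These genes were chosen on the condition that heterozygous and wild-type libraries did not overlap, so their separation is no further result.

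**Figure D5:**
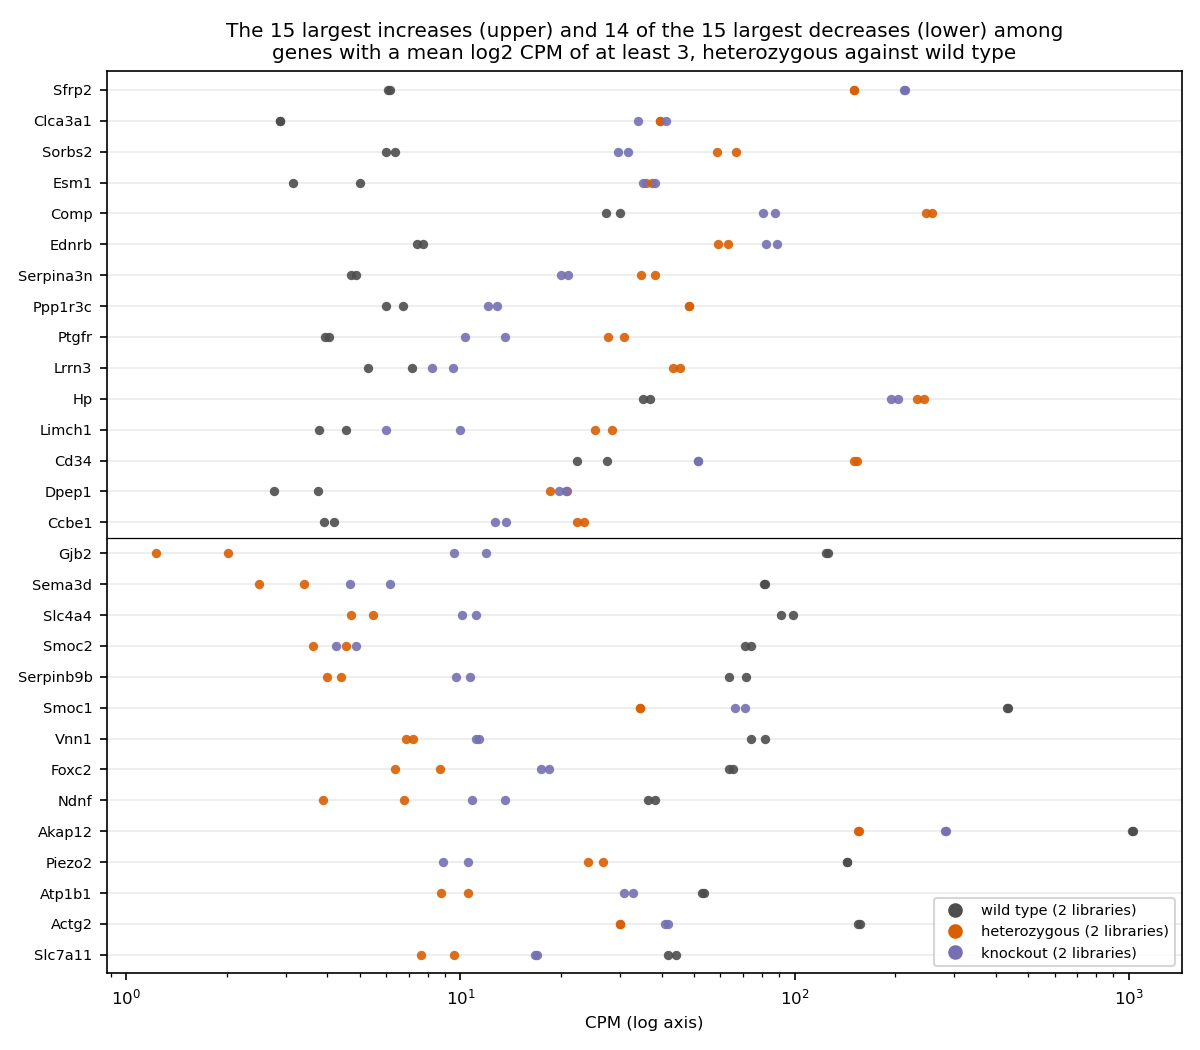
CPM on a log axis in each of the 6 libraries for the autosomal genes with the 15 largest increases and 14 of the 15 largest decreases in heterozygous against wild-type cells among genes with a mean log2 CPM of at least 3, with 1 point per library. Knockout libraries lie among the heterozygous ones for Esm1 and Smoc2, and closer to wild type than to heterozygous for Lrrn3 and Ppp1r3c.

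Whether heterozygous cells differ from knockout cells was tested directly in the contrast of those genotypes. Of the autosomal genes, 2743 were higher in heterozygous (18.1%) and 2927 lower (19.4%), or 2142 and 3949 with scaling by library totals only. The comparisons against wild type share the wild-type libraries, so their values are only set side by side. Among the genes of that plot, Lrrn3 was higher in heterozygous than in knockout cells by 2.32 ± 0.11 log2 (SE), Ppp1r3c by 1.95 ± 0.10 and Limch1 by 1.76 ± 0.16. Lower in heterozygous than in knockout were Gjb2 by -2.75 ± 0.15 and Atp1b1 by -1.72 ± 0.09 (edgeR, adjusted p at most 2.83e-10). Piezo2 was the other way round, with knockout lower still at 8.89 and 10.5 CPM (log2 1.39 ± 0.08 for heterozygous minus knockout). For Esm1, Clca3a1, Dpep1 and Smoc2 the contrast did not pass, with differences of -0.00 ± 0.09, 0.07 ± 0.09, -0.04 ± 0.12 and -0.17 ± 0.14 log2 (SE, edgeR, adjusted p = 0.982, 0.563, 0.849 and 0.387), which does not show that the genotypes are alike.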

How the data were processed

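RNA-seq of 6 libraries, 2 per genotype, was taken as the authors' deposited counts, whole-number reads per gene symbol that had not been normalized. Reads were aligned to GRCm38 with HISAT2 2.0.4, per the submitters' processing notes. The tool that counted reads, its annotation and its use of strand were not given in the sources used here. All 46095 rows named a gene. Total counts were 29622117 to 33899611 per library.

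Counts were scaled by TMM, filtered with filterByExpr by genotype (Chsy3 was kept in any case), and tested with edgeR 4.0.16 (R 4.3.3) in a robust quasi-likelihood fit of all 6 libraries, which left 3 residual degrees of freedom. A gene could pass the filter through 1 genotype alone. P-values were adjusted by Benjamini-Hochberg over 16061 genes, with a threshold of 0.05. CPM use the scaled library sizes. A fold against a genotype without counts was computed against 3 counts per library. Genes were placed on chromosomes by symbol. Promoters are RefSeq windows of 300 bases from GRCm38.p6. On counts simulated from these libraries, edgeR called 41 of 50 genes changed 2-fold and 22 of 50 changed 1.2-fold, and 12 unchanged genes, of 15682 genes tested.

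Named genes were Chsy3, the sex-linked check genes, the 15 largest increases and 15 largest decreases among called autosomal genes with a mean of log2 CPM over the 6 libraries of at least 3, an established symbol and no overlap of libraries, and members of 68 gene lists: up to 6 with the smallest p, the 3 with the highest level, every member called alone in its direction or below the filter, and all tested members of lists of up to 12. The members, lists and genes to describe were chosen with earlier results of these data known, so no list was tested as a set; each is given by its counts and median. The alternatives were DESeq2 1.42.0, other scalings and filters, 4 libraries only, autosomal genes only, a 2-fold minimum, a replicate block and leaving out each library. Figures were drawn with matplotlib 3.10.9. A few members that the rule names are not reported here.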

Additional observations from a re-analysis of the deposited data

Results flagged for a closer look

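A signal stood out in data outside the autosomal comparison. Xist had a mean of 1076 CPM in the heterozygous libraries, above the 663 and 654 CPM of the wild-type libraries, and the knockout libraries were at 650.5 and 653 CPM. The Y-linked genes Ddx3y, Uty, Kdm5d and Eif2s3y had 0 counts in both heterozygous libraries, although all libraries are labelled male. Wild-type and knockout libraries held Y-linked and Xist counts together, so their male label was not settled either. The source of these differences between genotypes was not tested.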

How the results depend on the processing

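Of the autosomal genes called against wild type, 79.0% to 99.7% were called in the same direction under other scalings, filters, fits or DESeq2 and with any 1 library left out, and 0 in the opposite direction. Counts of calls stayed within 1.5 times except under the 2-fold minimum, which by construction left 606 higher and 453 lower against wild type and 554 higher and 382 lower against knockout. In the lists it left 7 proteoglycan, 1 fibrillar collagen, 6 elastic fibre, 5 protease, 7 complement and 4 adipocyte genes higher, and 16 interferon-stimulated, 3 serine synthesis and 0 actin, mitotic, replication or ribosomal genes lower. With 1 library left out, calls ranged from 2430 to 2891 higher and 2507 to 3040 lower against wild type, and from 2215 to 2794 and 2381 to 2985 against knockout.

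Over the same omissions the lists gave 11 to 14 higher for proteoglycans, 7 to 8 for fibrillar collagens, 17 to 19 for elastic fibres, 14 to 18 for proteases, 9 to 12 for complement, 13 to 17 for skeletal transcription factors and 7 to 8 for adipocyte markers. They gave 47 to 50 lower for interferon-stimulated, 37 to 39 for mitotic, 25 to 31 for replication, 25 to 27 for actin, 17 to 20 for serine, 37 to 44 for ribosomal and 10 to 11 for meningeal genes. The fall of Chsy3 lost its call with DESeq2 (log2 -0.47, adjusted p = 0.119) and without any of the 4 compared libraries (log2 -0.53 to -0.43, edgeR adjusted p = 0.0923 to 0.181), where a lone library is assumed to vary like the other groups; other causes were not tested.

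Medians of the lists of heparan sulfate, basement membrane, collagen processing, protease inhibitor, BMP, cholesterol, fatty acid, oxidative stress and skeletal muscle genes changed sign under at least 1 alternative. Same-numbered libraries shared only a number: their deviations correlated at -0.02 between heterozygous and wild type over 16061 genes, 0.01 between knockout and wild type and 0.02 between knockout and heterozygous. The replicate block gave 2897 higher and 3029 lower against wild type. Levels at or under 3 counts per library were not detectable at this depth.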

Other observations

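Lipid and protein folding genes, not described above, held changes in both directions. Of 24 tested cholesterol genes 6 rose and 5 fell, near the background shares of 19.3% and 20.1%. Abcg1, an exporter of cholesterol from macrophages, went from 63.8 and 62.3 CPM in wild type to 29.3 and 23.4 in heterozygous. Insig1, which holds the sterol sensor in the endoplasmic reticulum, rose from 90.8 and 88.1 to 124 and 133 (edgeR, adjusted p = 2.75e-18 for Abcg1 and 2.08e-13 for Insig1). Of 21 fatty acid genes 5 rose and 4 fell, also near the background shares. The desaturase gene Scd2 fell from 1214 and 1208 to 815 and 819 CPM, Acaca, the carboxylase that starts fatty acid synthesis, from 76.4 and 70.04 to 49.6 and 46.999, and the fatty acid transporter gene Cd36 rose from 20.9 and 20.4 to 40.4 and 44.1 (edgeR, adjusted p at most 6.15e-11). Among 25 chaperone and unfolded protein response genes 7 rose and 14 fell. Hspa8, the constitutive heat shock protein of the cytosol, fell from 1135 and 1111 to 760.4 and 775 CPM, and Hspa5, its relative in the endoplasmic reticulum, by a smaller amount, from 1224 and 1226 to 1063 and 1077 (edgeR, adjusted p = 1.37e-23 and 3.25e-10).

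Markers of less abundant cell types also differed. Of 8 tested pericyte markers 3 rose and 2 fell (1 fell without heterozygous library 1 or 2 and without wild-type library 1). Ndufa4l2, a mitochondrial protein induced by hypoxia, was at 81.6 and 78.9 CPM in wild type and 271 and 272 in heterozygous, and Steap4, a metalloreductase, at 1.53 and 1.59 and 11.96 and 11.1. Cspg4, which encodes the proteoglycan NG2, fell (log2 -0.78, edgeR adjusted p = 6.25e-20), and Rgs5, Notch3 and Abcc9 did not pass. Of 9 Schwann cell and neuron markers 3 rose (1 without wild-type library 1) and 1 fell. Pmp22, a protein of peripheral myelin, rose from 170.2 and 161 to 276 and 278, and the adhesion gene Ncam1 fell from 105 and 103 to 48.3 and 44.5 (edgeR, adjusted p at most 1.05e-15 for Ndufa4l2, Steap4, Pmp22 and Ncam1). Of 9 endothelial markers 3 fell and 1 rose (0 rose without heterozygous library 2 or wild-type library 2). Cdh5, the cadherin of vessel walls, fell from 6.76 and 6.32 to 0.555 and 0.912, while Vwf, a secreted clotting protein, was at 19.9 and 20.9 and 22.1 and 19.8 and did not pass (edgeR, adjusted p = 9.42e-11 and 0.773).

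A few genes had counts on 1 side alone, and they were picked after their values were seen. With at least 20 counts in each library of 1 genotype and 0 in both of the other, 5 genes were found in heterozygous but not in wild-type cells and 5 in wild-type but not in heterozygous cells. The first 5 were Ifi202b, described above, LOC100044068, Cbln1, 1700030C10Rik and Myoc. LOC100044068, also on chromosome 1, had 374 and 373 counts in heterozygous libraries and 0 in knockout, at least 140-fold higher than 3 counts per library would give. Cbln1, which encodes a secreted protein that organizes synapses, had 114 and 103 counts (at least 40.8-fold higher) and 30 and 36 in knockout. Myoc, which encodes myocilin, had 71 and 28. The genes without a count in heterozygous cells were Il22ra1, Gm26747, Nt5c1a, Mpzl2 and Krt75. Il22ra1, the interleukin 22 receptor, had 60 and 58 counts in wild type and 0 in knockout (at least 17.5-fold lower in heterozygous). Of 6 tested genes from a list whose expression varies among inbred strains, 2 rose and 1 fell (0 fell without heterozygous library 2). Nnt, a mitochondrial transhydrogenase in that list, was at 49.7 and 48.8 CPM in wild type, 81.2 and 79.4 in heterozygous and 54.6 and 54.4 in knockout (edgeR, adjusted p = 8.33e-14 for heterozygous against wild type). The strain of the animals was not given in the sources used here, and its part in these values was not tested.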
